A study of Gallus gallus with 4 samples.

Results

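EPHA10, PLXNA4, NFASC, LRRN2, ELFN2 and ASTN1 encode neuronal guidance receptors and membrane proteins of adhesion and migration, BRINP2 is a neural gene that shares a locus with ASTN1 in the table, and all 7 were listed as higher in head than in trunk neural crest cells of chick embryos. They were taken from the 212 rows of the authors' deposited table by their names, 4 under the current symbol and 3 under another name (BRINP2 and PLXNA4 under the older symbols FAM5B and PLXNA4B, NFASC under its chicken protein entry). The list was drawn up with the table's values known, so the difference between the groups is described here and not tested. The cells were cranial neural crest at Hamburger-Hamilton stage HH9+, carrying the FoxD3 enhancer NC1, and trunk neural crest at stage HH14, carrying the FoxD3 enhancer NC2, with 2 libraries per group. Both groups were electroporated embryos of Gallus gallus, cut into head or trunk, dissociated and sorted for living GFP-positive cells, so each population is defined by an active enhancer. Axial level, stage and enhancer differ together between the groups and cannot be told apart. Whether the libraries came from separate pools of embryos is not given in the sources used here.

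Neural crest cells leave the dorsal neural tube and migrate along defined routes. Guidance receptors such as the Eph receptors and plexins read ephrins and semaphorins on those routes and steer migrating crest cells as well as growing axons. Adhesion proteins with immunoglobulin or leucine-rich repeat domains hold neuronal membranes to each other and to matrix, and are best known from axons and synapses. Astrotactins are membrane proteins known from neurons migrating along glial fibres in the mouse cerebellum.

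For each row the authors gave a single value per group and none per library, so the spread between libraries and their depth are unknown. The values are read as FPKM (fragment counts scaled to transcript length and to sequencing depth). Levels of different genes can be compared per length only as far as the gene models are complete, which was not tested. The table holds only rows that were higher in cranial cells and that the authors marked as significant (212 of 212, 100%), so the direction shared by the 7 genes is a property of the table. Of 10 neural crest markers searched, SOX8 alone was present, with 30.7 FPKM in cranial cells and 3.30 FPKM in trunk cells per the authors' deposited table, and FOXD3 and SOX10 did not appear under those symbols. None of 10 markers of differentiated neurons (9 of them symbols in a chicken gene table) and none of 8 of neural tube progenitors was listed under its symbol. Of 10 markers of surface ectoderm and placode, the epithelial cadherin CDH1 and the splicing regulator ESRP1 were present, with 24.9 and 2.56 FPKM in cranial cells and 5.65 and 0.532 FPKM in trunk cells per the authors' deposited table. The part of other cell types in the results was not tested, and in sorted pools fewer expressing cells and less RNA per cell cannot be told apart. A marker outside the table has no value here, and 95 of the 212 rows were left without a symbol and were not searched.

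Relative to each other, the 7 genes fell into a higher group, NFASC, ASTN1 and PLXNA4, and a weakly expressed group, LRRN2, ELFN2, EPHA10 and BRINP2. Cranial levels ran from 2.39 FPKM for BRINP2 to 26.7 FPKM for NFASC, and trunk levels from 0.150 FPKM for EPHA10 to 14.8 FPKM for NFASC, in the authors' deposited table. The weakly expressed group had at most 4.30 FPKM in cranial cells and less than 1 FPKM in trunk cells per the authors' deposited table. Summed over the 7 genes, the level was 65.6 FPKM in cranial cells and 25.1 FPKM in trunk cells of the authors' deposited table, a 2.61-fold difference. NFASC made up 40.6% of the cranial sum and 59.0% of the trunk sum, whereas ASTN1 made up 21.8% of the cranial sum and 9.03% of the trunk sum. Sums and shares take the ASTN1 and BRINP2 rows as listed, although the assignment of reads between them is uncertain. The median gene of the set, LRRN2 for both levels, stood below the median row of the authors' deposited table, which was at 12.1 FPKM in cranial cells and 2.72 FPKM in trunk cells. Of the higher group, PLXNA4 in cranial cells (11.9 FPKM) and ASTN1 in trunk cells (2.27 FPKM) also lay below these medians.

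**Figure D1:**
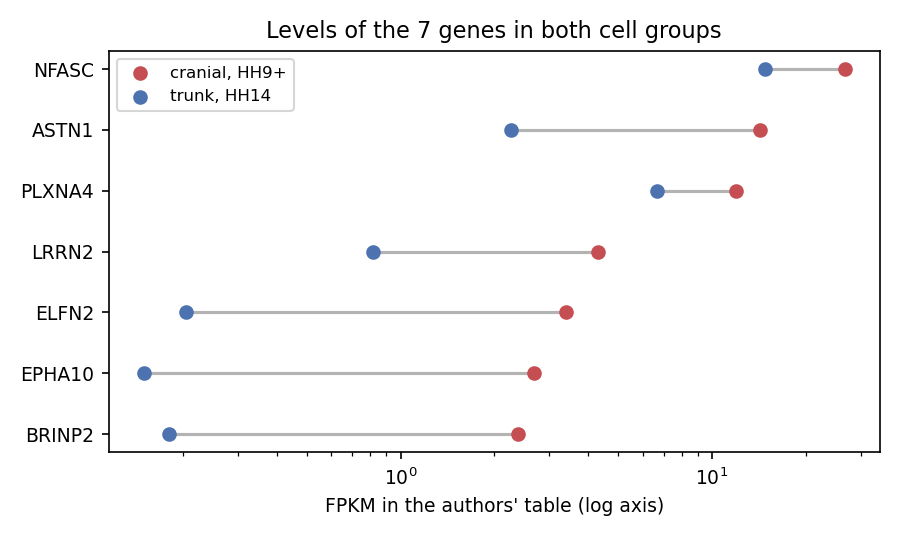
Level of each of the 7 genes in FPKM on a log axis, with the authors' single cranial value (red) and single trunk value (blue) joined by a line. All 7 cranial points lie to the right, and the lines of EPHA10, ELFN2 and BRINP2 are long because their trunk values lie at or below 0.205 FPKM.

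Among the guidance receptors, the Eph receptor gene and the plexin gene showed opposite combinations of level and fold. EPHA10 encodes an Eph receptor whose kinase domain is regarded as inactive in mammals. Its level in the authors' deposited table was 2.68 FPKM in cranial cells and 0.150 FPKM in trunk cells. The 17.9-fold ratio was the largest of the 7 genes and the 19th largest of 212 rows (log2 4.16, implied SE 0.75, q = 6.39e-06 in the authors' deposited table). The implied SE is the log2 fold divided by the authors' test score; it comes from the authors' error model and is no measured spread between libraries. EPHA10 therefore joined a low cranial level, 191st of 212 rows, to a trunk level that was among the lowest in the table, 202nd of 212. Its interval in the authors' coordinates is chromosome 23 from 3897410 to 3931673, and the genome build of all coordinates given here is not settled.

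PLXNA4, a plexin that acts with neuropilins as a receptor for class 3 semaphorins, had 11.9 FPKM in cranial cells and 6.68 FPKM in trunk cells per the authors' deposited table. Its ratio of 1.78-fold was the smallest of the 7 genes and 190th of 212 rows (log2 0.84, implied SE 0.14, q = 1.88e-06 in the authors' deposited table). The implied SE of PLXNA4 was the 7th smallest of the table, so a small fold and a low q stood together. In absolute terms PLXNA4 differed by 5.24 FPKM and EPHA10 by 2.53 FPKM between cranial and trunk cells of the authors' deposited table, the reverse of their order by fold. The PLXNA4 row spans 219174 bases of chromosome 1, from 2328432 to 2547605, and only 10 rows of the authors' deposited table are longer.

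NFASC was the most abundant of the 7 genes in both groups. It encodes neurofascin, an L1-family immunoglobulin adhesion molecule that organises the axon initial segment and the nodes of Ranvier. The level in the authors' deposited table was 26.7 FPKM in cranial cells and 14.8 FPKM in trunk cells. The 1.80-fold ratio ranked 187th of 212 rows, with the 10th smallest implied SE (log2 0.85, implied SE 0.15, q = 4.38e-06 in the authors' deposited table). By its absolute difference of 11.9 FPKM the gene stood much higher, at 77th of 212. NFASC thus had substantial RNA in trunk cells too, where only 30 rows of the authors' deposited table were higher.

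Both listed genes of the neuronal leucine-rich repeat group had low levels and short loci. ELFN2 encodes a postsynaptic adhesion protein with leucine-rich repeats and a fibronectin domain that in the mouse binds metabotropic glutamate receptors. It had 3.39 FPKM in cranial cells and 0.205 FPKM in trunk cells per the authors' deposited table, and the ratio of 16.5-fold ranked 22nd (log2 4.05, implied SE 0.78, q = 4.04e-05). LRRN2 encodes a transmembrane protein with leucine-rich repeats and an immunoglobulin domain. Its levels in the authors' deposited table were 4.30 FPKM in cranial cells and 0.814 FPKM in trunk cells, a 5.28-fold ratio. LRRN2 had the weakest statistical support of the 7 genes, with a score that ranked 202nd of 212 rows and a q of 0.0420, near the largest q of the authors' deposited table, 0.0485 (log2 2.40, implied SE 0.74). ELFN2 lies on chromosome 1 from 53299294 to 53301703 and LRRN2 on chromosome 26 from 1638918 to 1640997, loci of 2410 and 2080 bases against a median of 24719 bases over all rows of the authors' deposited table. FPKM is scaled to the length of the gene model, so both levels depend on how complete these short models are, which was not tested.

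ASTN1 and BRINP2 were listed at the same locus, chromosome 8 from 7029032 to 7085298, and the assignment of reads between them is uncertain. ASTN1 encodes astrotactin, and BRINP2 a neural protein of the family induced by BMP and retinoic acid; both proteins carry a domain related to perforin. ASTN1 had 14.3 FPKM in cranial cells and 2.27 FPKM in trunk cells per the authors' deposited table, and the ratio was 6.30-fold (log2 2.66, implied SE 0.33, q = 4.02e-13). That row had the 6th highest score of all 212 and the largest absolute difference of the 7 genes, 12.0 FPKM. BRINP2 had 2.39 FPKM in cranial cells and 0.181 FPKM in trunk cells per the authors' deposited table, and the ratio was 13.2-fold (log2 3.72, implied SE 0.66, q = 4.03e-06). The ASTN1 level was thus 5.98 times the BRINP2 level in cranial cells and 12.5 times in trunk cells of the authors' deposited table. The log2 folds of BRINP2 and ASTN1 differed by 1.07, which is 1.45 times their combined implied SE of 0.74. That combination treats the errors of the rows as independent, which rows at a shared locus need not be. A chicken gene table of assembly GRCg7b holds both as separate genes that lie next to each other, with 0 protein-coding genes starting between them. The table has 10 rows that share a locus, at 5 loci, and these 2 rows are the only such pair among the 7 genes.

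LRRN2 and NFASC also lie close together, in separate loci. Their rows are 56196 bases apart on chromosome 26, NFASC reaching from 1697194 to 1773799 in the authors' coordinates, and 0 of the 9 rows listed on that chromosome lie between them. In the GRCg7b gene table as well, 0 protein-coding genes start between them, and the next gene beyond NFASC is CNTN2, an adhesion molecule gene that was not listed under its symbol. The NFASC level was 6.20 times that of LRRN2 in cranial cells and 18.2 times in trunk cells of the authors' deposited table. Their log2 folds differed by 1.55, higher for LRRN2, which is 2.05 times the combined implied SE. For EPHA10, ELFN2 and PLXNA4 the nearest listed row on the chromosome was at least 515576 bases away.

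**Figure D2:**
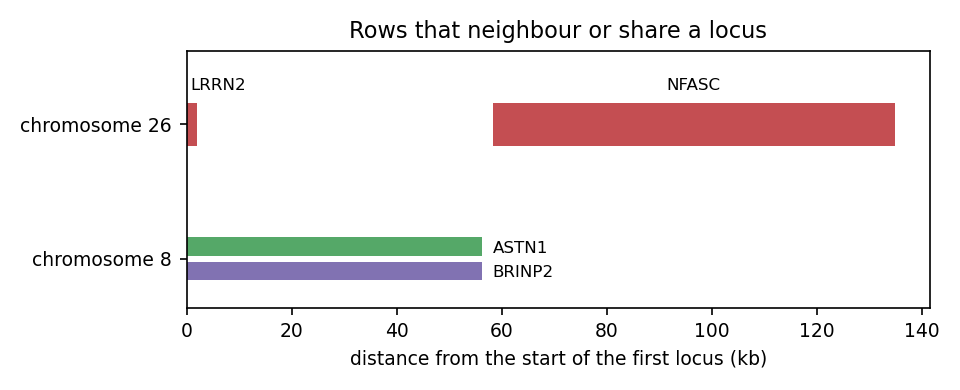
Rows of the 7 genes that neighbour each other or share a locus, drawn to scale in kilobases from the start of the first locus on each chromosome. LRRN2 and NFASC lie 56196 bases apart, whereas ASTN1 and BRINP2 were given 1 identical interval of 56267 bases; colours only tell the rows apart.

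As deposited, the order of the 7 genes by fold holds 2 gaps wider than the combined implied SE of neighbouring genes. From high to low the order was EPHA10, ELFN2, BRINP2, ASTN1, LRRN2, NFASC and PLXNA4. EPHA10 and ELFN2 differed by 0.11 and ELFN2 and BRINP2 by 0.32 on the log2 scale, both less than their combined implied SE. ASTN1 and LRRN2 differed by 0.26 and NFASC and PLXNA4 by 0.01 on the log2 scale, again less than the combined implied SE. The gaps that exceeded it were those between BRINP2 and ASTN1, whose errors need not be independent, and between LRRN2 and NFASC. Both gaps involve a gene with less than 1 FPKM in trunk cells, and neither kept its size with an amount added. With 0.5 FPKM added to both values, ASTN1 stood above BRINP2, at log2 2.42 against 2.09. LRRN2 and NFASC stood at log2 1.87 and 0.83 with 0.5 FPKM added, and at 1.55 and 0.81 with 1 FPKM added. Their combined implied SE of 0.76 belongs to the values as deposited, and no error was computed with an amount added. The order by level had no combined error, because no error of a single level is used here.

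**Figure D3:**
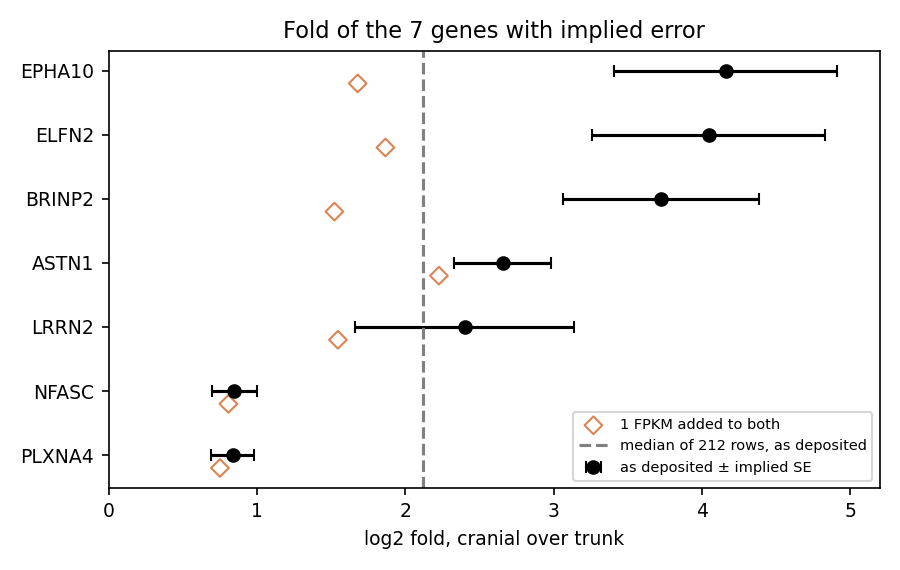
Log2 fold of each gene, cranial over trunk, as deposited (black, bars of ± 1 implied SE from the authors' score) and with 1 FPKM added to both values (open diamonds); the dashed line is the median of all 212 rows as deposited, 2.12. Adding 1 FPKM places ASTN1 highest at 2.23 and leaves NFASC and PLXNA4 within their bars.

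Counted by size, 5 of the 7 genes were at least 4-fold higher in cranial cells, beside 115 of all 212 rows (54.2%). With at least 8-fold the counts were 3 of 7 genes and 57 of 212 rows (26.9%), with at least 16-fold they were 2 of 7 and 23 of 212 (10.8%), and with at least 2-fold they were 5 of 7 and 173 of 212 (81.6%). The median fold of the 7 genes was 6.30 (log2 2.66), against 4.34 (log2 2.12) over all rows of the authors' deposited table. A q under 0.001 was given for 6 of the 7 genes, all but LRRN2, beside 82 of 212 rows (38.7%). Since the genes were chosen with these values known, the counts describe the choice. The trunk value is the denominator of the fold, so rows split by it differ in fold by construction. A trunk value under 1 FPKM was given for 4 of the 7 genes, beside 63 of 212 rows (29.7%), and those 63 rows had a median fold of 11.0. EPHA10, ELFN2 and BRINP2 lay above and LRRN2 below that median. In the other 149 rows of the authors' deposited table the median fold was 3.08, with ASTN1 above it and NFASC and PLXNA4 below it.

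**Figure D4:**
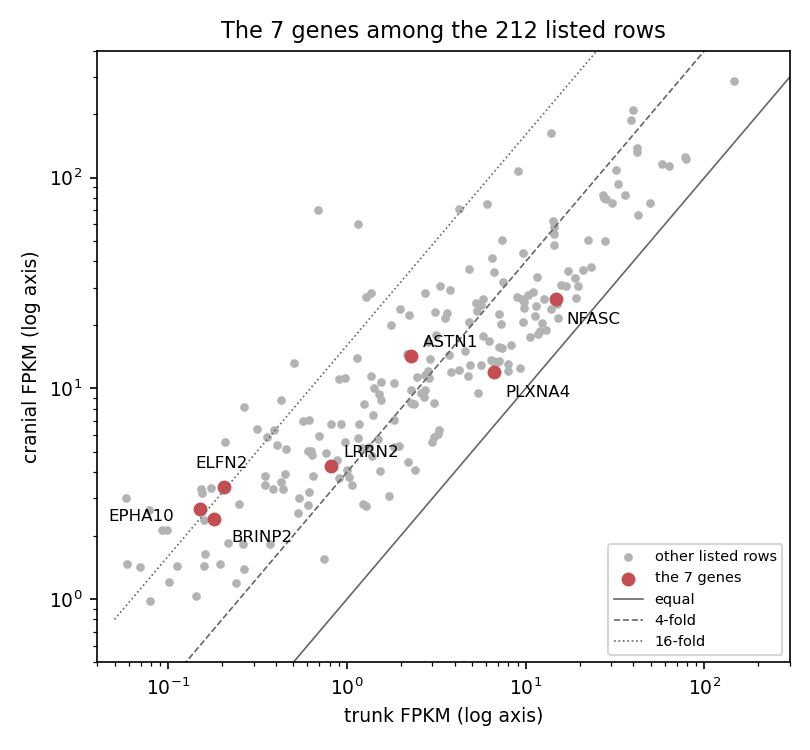
Cranial against trunk level in FPKM on log axes for all 212 rows (grey) with the 7 genes in red; lines mark equal levels, 4-fold and 16-fold. EPHA10 and ELFN2 lie above the 16-fold line, BRINP2 just under it, ASTN1 and LRRN2 between 4-fold and 16-fold, and NFASC and PLXNA4 between equality and 4-fold.

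Adding 1 FPKM to both values, which damps ratios of low levels, left 1 of the 7 genes, ASTN1, at 4-fold or more (4.68-fold), beside 54 of 212 rows. EPHA10 then stood at 3.20-fold and 87th of 212 rows, in place of 19th, and ELFN2 at 3.65-fold and 67th, in place of 22nd, with values of the authors' deposited table. BRINP2 stood at 2.87-fold and 105th, in place of 26th, and LRRN2 at 2.92-fold and 99th, in place of 88th. NFASC stood at 1.75-fold and PLXNA4 at 1.68-fold with 1 FPKM added to values of the authors' deposited table. By rank ASTN1 rose from 74th to 38th, NFASC from 187th to 180th and PLXNA4 from 190th to 187th. The median log2 fold of the 7 genes was then 1.55, against 1.51 over all rows.

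For each gene, the listed row with a symbol that lay nearest on both log2 levels was sought; with 1 value per group, likeness rests on 2 numbers. STMN4, a tubulin-binding protein gene, was nearest to both EPHA10 and BRINP2, at 2.36 FPKM in cranial cells and 0.159 FPKM in trunk cells per the authors' deposited table (distances of 0.20 and 0.19 log2 units). The uroplakin gene UPK3B was nearest to ELFN2 (distance 0.38), and OTOGL, related to the inner ear protein otogelin, was nearest to LRRN2 (distance 0.22). The calcium-stimulated adenylyl cyclase gene ADCY8 was nearest to ASTN1, at the widest of these distances, 0.40. Rows without a symbol were left out of the search. A row without a symbol lay nearer to ASTN1, at 14.5 FPKM in cranial cells and 2.18 FPKM in trunk cells of the authors' deposited table. Rows without a symbol also lay nearer to ELFN2 and LRRN2 than the genes named. JOSD1, a deubiquitinase gene, was nearest to NFASC (distance 0.08), at 25.2 FPKM in cranial cells and 14.9 FPKM in trunk cells per the authors' deposited table. The membrane protein gene TMEM26 was nearest to PLXNA4 (distance 0.13).

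The wider families of guidance and adhesion genes were searched with 9 lists of 218 entries, of which 197 are symbols in the chicken gene table. An entry outside that gene table could be found only through a translation by hand. With translated names 12 entries were listed, all higher in cranial cells as every row is, and 7 of these are the genes described above. The lists were drawn up with earlier results of these data known. No share of all chicken genes listed was computed, so the counts do not show whether a family was listed more or less often than others. The 95 rows left without a symbol were not searched, so the counts of each list cover only the rows that received one. EPHA10 was the only member found among 22 Eph receptors and ephrins, of which 17 are symbols in the chicken gene table. PLXNA4 was the only one among 31 semaphorins, plexins and neuropilins, of which 26 are symbols there. NFASC was 1 of 3 listed among 33 immunoglobulin adhesion molecules and contactin-associated proteins, 31 of them symbols there. ELFN2 and LRRN2 were the 2 listed among 34 leucine-rich repeat proteins, 30 of them symbols there. ASTN1 and BRINP2 were the 2 listed among 5 astrotactin and BRINP genes, all of them symbols there. None of 18 integrins, 17 of them symbols there, was listed under its symbol. Ligands of the listed receptors, the ephrins and semaphorins, were absent under their symbols, and a gene outside the table has no value here.

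Of the other 5 listed entries, 3 belong to adhesion lists. NTM, an immunoglobulin protein of the IgLON family anchored to neuronal membranes by a lipid, had 17.8 FPKM in cranial cells and 5.77 FPKM in trunk cells per the authors' deposited table, and the ratio was 3.08-fold (q = 0.0266). Its cranial level lay between those of ASTN1 and NFASC. CNTNAP5, a contactin-associated membrane protein, had 2.79 FPKM in cranial cells and 0.607 FPKM in trunk cells per the authors' deposited table, and the ratio was 4.59-fold (q = 0.0213). CDH1 was the only one of 38 cadherins found in the rows with a symbol, with a 4.40-fold ratio in the authors' deposited table. The folds of these 3 genes lay between those of LRRN2 and NFASC.

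The remaining 2 belong to the list of netrins, slits, draxin and their receptors, with 22 entries. UNC5D, a receptor for repulsive netrin signals, had 1.56 FPKM in cranial cells and 0.746 FPKM in trunk cells per the authors' deposited table, and the ratio was 2.09-fold (log2 1.06, implied SE 0.24, q = 0.000961). Among the 63 rows with a trunk value under 1 FPKM it had both the smallest fold and the smallest implied SE. The secreted guidance protein gene DRAXIN had 107 FPKM in cranial cells and 9.08 FPKM in trunk cells per the authors' deposited table, above all 7 genes in cranial level. The median fold of the other 5 entries was 4.40, with 3 of 5 at 4-fold or more, beside 54.2% of all rows.

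**Figure D5:**
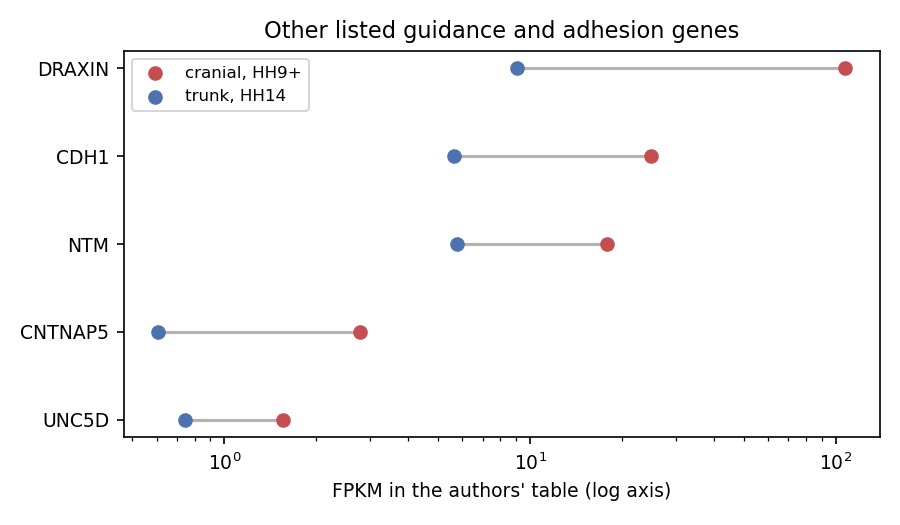
Levels in FPKM on a log axis of the 5 other listed genes of the guidance and adhesion lists, with the authors' single cranial value (red) and trunk value (blue) joined by a line. DRAXIN has the highest cranial level and UNC5D the lowest, with ratios from 2.09-fold for UNC5D to 11.8-fold for DRAXIN.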

How the data were processed

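Per the labels' protocols, cDNA was amplified from the RNA of sorted cells and read from a single end. The submitters' processing notes name TopHat, Cufflinks, Cuffdiff 2.1 and galGal4, without role or order; some sequence names in the table belong to galGal3. The deposited FPKM values (1 per group and row), log2 fold, test score, p-value and q-value are the authors' own; the unit is read from the software, as the file headers say only values. The deposited log2 fold runs trunk over cranial and was recomputed here as cranial over trunk. The authors' score is positive for a higher cranial value, and a two-sided normal p computed from it matched the deposited p to 1% in all 193 rows whose deposited p was 1e-10 or more. An implied SE was taken as log2 fold over score, after the values were seen; the file headers do not state this meaning. Names were matched to the GRCg7b gene table, with 8 translated by hand, and 117 rows received a symbol.

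The members, the lists and the implied SE were chosen with earlier results of these data known. Named genes were the 7 members, the nearest row with a symbol to each on both log2 levels, rows sharing a locus, and the listed entries of the guidance and adhesion lists, except 1 entry that was taken out of the lists and is not reported here; markers were named as well, and CNTN2 after its position was seen. No test was made. Alternatives were 0.1, 0.5, 1 and 5 FPKM added, filters on level, q and shared loci, and fold limits of 2 and 8. The arithmetic of fold and implied SE was checked on simulated data. The simulated score was built as fold over error, so the meaning of the authors' score was not tested. Python 3.11.15, pandas 2.3.3, NumPy 2.4.6, SciPy 1.17.1 and Matplotlib 3.10.9 were used. Depth per library is unknown, so no counting interval is given.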

Additional observations from a re-analysis of the deposited data

How the results depend on the processing

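No alternative could reverse a gene, since every row is higher in cranial cells and an amount added to both values keeps the sign. The median log2 fold of the 7 genes, 2.66, became 2.09, 1.55 and 0.68 with 0.5, 1 and 5 FPKM added, 0.85 over the 3 genes with at least 1 FPKM in both groups, 3.19 over the genes with q under 0.01, and 3.06 with only the BRINP2 row kept at the shared locus, a choice made after seeing the data. The count of 5 of 7 genes at 4-fold or more became 1 and 0 of 7 with 1 and 5 FPKM added. At an 8-fold limit it was 3 of 7, beside 57 of 212 rows. Over fewer genes it was 1 of the 3 with at least 1 FPKM in both groups, and 3 once the 2 rows that share a locus were left out. Where genes or limits changed, the count falls by construction. The share of all rows at 4-fold or more under these 2 filters was not counted. The other 9 values stayed within the implied SE of ASTN1, the median gene, or within 1.5 times the count. Over all 212 rows, the median log2 fold of 2.12 became 1.70, 1.51 and 0.84 with 0.5, 1 and 5 FPKM added. With 5 FPKM added, the median of the 7 genes thus lay below that of all rows. The 115 of 212 rows at 4-fold or more became 54 and 16 with 1 and 5 FPKM added. Over the 149 rows with at least 1 FPKM in trunk cells, and so in both groups, the median log2 fold was 1.63. With 1 FPKM added, 5 genes moved by over 1 implied SE, and NFASC and PLXNA4 did not. With 5 FPKM added, all 7 did. Such a shift follows from the levels and the implied SE of a row, and it was not counted over all 212 rows. ASTN1 was highest of the 7 with 1 and 5 FPKM added, and ELFN2 with 0.1 and 0.5. No paired analysis was possible because each row has a single value per group, and the labels share no replicate letter but A between groups. Without values per library, leaving out each library was not run. Since depth is unknown, what it limits for the 4 low genes cannot be stated.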
